A study of Homo sapiens with 12 samples.

Results

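JIMT1 cells held for 7 days without attachment (PH7d) were set against JIMT1 tumors grown in mice (xenograft), gene by gene and array by array. JIMT1 is a breast cancer line that carries extra copies of HER2, lacks the estrogen and progesterone receptors and does not respond to trastuzumab. The PH7d cells grew in wells coated with polyHEMA, a film to which cells do not adhere, so that they hold on only to each other and form floating masses. For the xenografts, the same line was injected with Matrigel, a basement membrane gel, into the mammary fat pads of BALB/c nude mice, and tumors were taken after 43 days. The comparison is between 4 of the 12 arrays of the series, 2 biological replicates of each group. It covers all 10970 genes that passed the filter on dim probes. The model was fitted to all 12 arrays, so its errors pool the spread within all 6 groups. Nude mice lack T cells but keep other immune cells, vessels and fibroblasts, so a tumor holds mouse tissue among the human cells. The array carries probes for human genes, and how much mouse RNA they bind was not measured. The replicates are called biological, without word on separate cultures or mice, so the p-values measure the spread between replicate arrays. In bulk RNA, fewer cells of a type and less RNA per cell cannot be told apart.

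A cell that loses its anchorage to a matrix receives no signal through integrins, and many epithelial cells then slow their cycle or die. A cell in a tumor is surrounded by collagen, laminin, growth factors such as TGF-beta, blood supply and host cells. Carcinoma cells can shift between an epithelial state, with E-cadherin, keratins and tight junction claudins, and a mesenchymal state, with vimentin, N-cadherin and the transcription factor SLUG (SNAI2).

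The arrays detected 17739 and 15093 probes in PH7d and 17559 and 17316 in the xenografts, at a detection p under 0.01. The xenograft replicates lay close together, with 15 of 10970 genes at least 2-fold apart, whereas the PH7d replicates differed by at least 2-fold for 3345 genes. Across genes, PH7d replicate 1 correlated at r = 0.93 with the xenograft mean and at r = 0.83 with the mean of monolayer cells kept for 7 days (2D7d). PH7d replicate 2 did the reverse, with r = 0.843 to the xenograft and r = 0.951 to 2D7d. These correlations run across genes, which are not independent replicates. Values are therefore given for each array, as normalized log2 intensity, a scale on which 1 unit is a 2-fold difference. The dimmest detected probes lay at 5.51 and 5.98 on the PH7d arrays and at 5.53 and 5.56 on the xenograft arrays. Breast epithelium markers were detected in both groups, 9 of 11 on each of the 4 arrays. Among them were KRT5, lower in PH7d, and ESR1, the estrogen receptor gene, though the line is described as lacking that receptor. ESR1 read 7.71 and 7.15 in PH7d, against 6.76 and 6.84 in the xenografts. ERBB2, which encodes HER2, stood at 14.07 and 13.99 in PH7d, against 13.98 and 13.65 in the xenografts. Of the housekeeping genes, 0 of 11 were called, against 7.35% of all genes. At that share few calls would fall in so short a list. Their log2 differences ran from -0.9 to 0.85, with a median of 0.05.

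A gene was called changed at a Benjamini-Hochberg adjusted p under 0.05 in limma and a difference of at least 2-fold. By this rule 806 of 10970 genes (7.35%) differed, of which 438 (3.99%) were higher in PH7d and 368 (3.35%) were lower. The median difference over all genes was 0.01. A difference of at least 2-fold alone held for 949 genes in the higher direction (8.65%) and 1296 in the lower (11.8%). The arrays of PH7d lay wholly above those of the xenograft for 29.3% of all genes and wholly below for 26.3%. In 0 of the 806 called genes did a PH7d array fall among the xenograft arrays. A difference of at least 2-fold in each of the 4 pairings of a PH7d array with a xenograft array held for 413 genes in the higher direction (3.76%) and 385 in the lower (3.51%), and 337 and 293 of these were also called. The split of the PH7d replicates shows in how many genes lay at least 2-fold off the xenograft mean: 711 higher and 748 lower on replicate 1, and 1893 higher and 2481 lower on replicate 2. On both arrays in the same direction there were 952 such genes, and 27 went opposite ways.

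**Figure D1:**
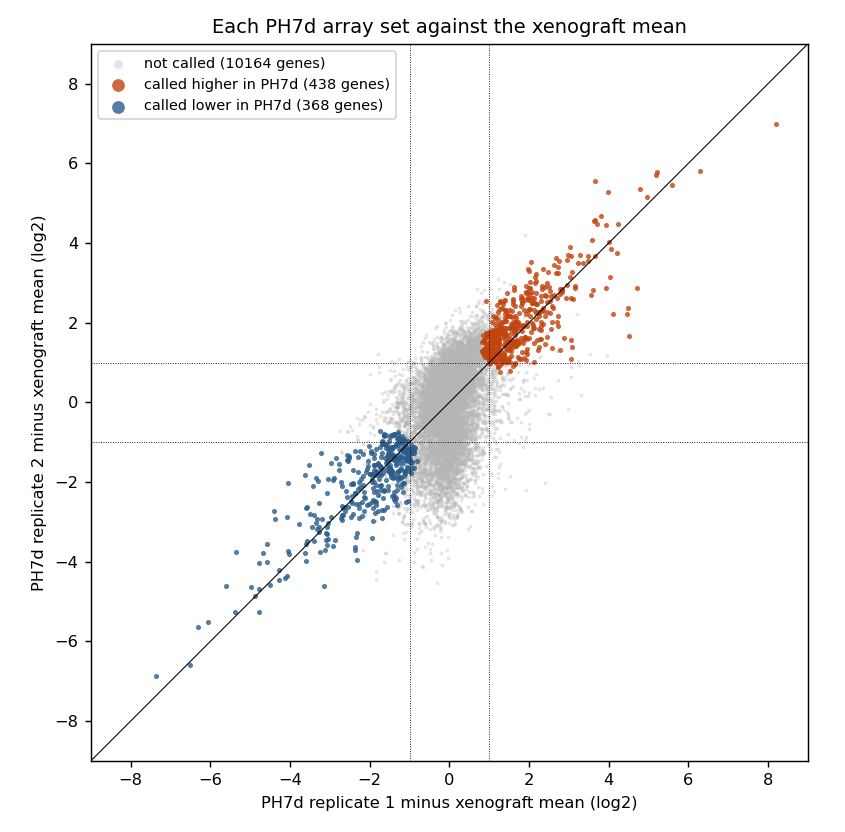
Each point is a gene, at its log2 difference from the xenograft mean on PH7d replicate 1 (horizontal axis) and on PH7d replicate 2 (vertical axis); dotted lines mark 2-fold. The 438 genes called higher (orange) and the 368 called lower (blue) lie along the diagonal, while the cloud of genes not called (gray) is stretched along the vertical axis, where 3395 genes passed 2-fold on replicate 2 alone against 480 on replicate 1 alone.

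The 12 largest rises in PH7d were RARRES1, AKR1C3, LCN2, ID1, S100P, DHRS3, COXFA4L3, INSYN1, AKR1B10, ELF3, CYP26A1 and AKR1C2. RARRES1, a gene first found as induced by retinoids, read 14.66 and 13.44 in PH7d, against 5.98 and 6.93 in the xenografts. Both PH7d arrays were bright, and the xenograft arrays were dim, without overlap. The difference was 7.59 ± 0.50 (log2, SE of the model, n = 2 arrays each, adjusted p = 5.25e-05, limma), 193-fold. Its 3 probes disagreed in size, with log2 differences between 3.78 and 7.59. AKR1C3, an aldo-keto reductase that converts steroid hormones and prostaglandins, read 10.91 and 10.42 in PH7d, against 4.68 and 4.52 in the xenografts, where it was not well above background. It was at least 34.7-fold higher in PH7d (adjusted p = 8.27e-05), a bound taken against the lowest detected signal of each xenograft array or the probe's own, whichever was higher. AKR1C2, a close paralog, was at least 11-fold higher (adjusted p = 0.000162), and AKR1B10, a reductase of retinal and other aldehydes, read 10.39 and 12.29 in PH7d and 6.52 and 6.93 in the xenografts (4.62 ± 0.57, adjusted p = 0.00141). Probes for the near-identical AKR1C genes may bind each other's transcripts, so their values are not independent.

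LCN2, or lipocalin-2, an iron-binding protein of mucosal defense, read 14.06 and 13.93 in PH7d, against 8.44 and 8.48 in the xenografts (5.53 ± 0.57, adjusted p = 0.000534). S100P, a calcium-binding protein of many carcinomas, read 13.30 and 13.81 in PH7d, against 7.98 and 8.21 in the xenografts (5.46 ± 0.27, adjusted p = 1.44e-05). The lowest PH7d array stood 5.45 above the highest xenograft array for LCN2 and 5.09 above it for S100P. ID1, an inhibitor of basic helix-loop-helix transcription factors and a target of BMP signaling, read 12.65 and 13.23 in PH7d, against 7.42 and 7.47 in the xenografts (5.50 ± 0.33, adjusted p = 3.21e-05). ELF3, an epithelium-restricted ETS factor, read 12.18 and 12.44 in PH7d, against 8.08 and 7.82 in the xenografts (4.36 ± 0.32, adjusted p = 8.98e-05). COXFA4L3, a small mitochondrial protein, was higher by 5.06 ± 0.41 and INSYN1, a protein of inhibitory synapses, by 4.64 ± 0.47. The calls of the 12 largest rises held whichever of the 4 arrays was left out.

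**Figure D2:**
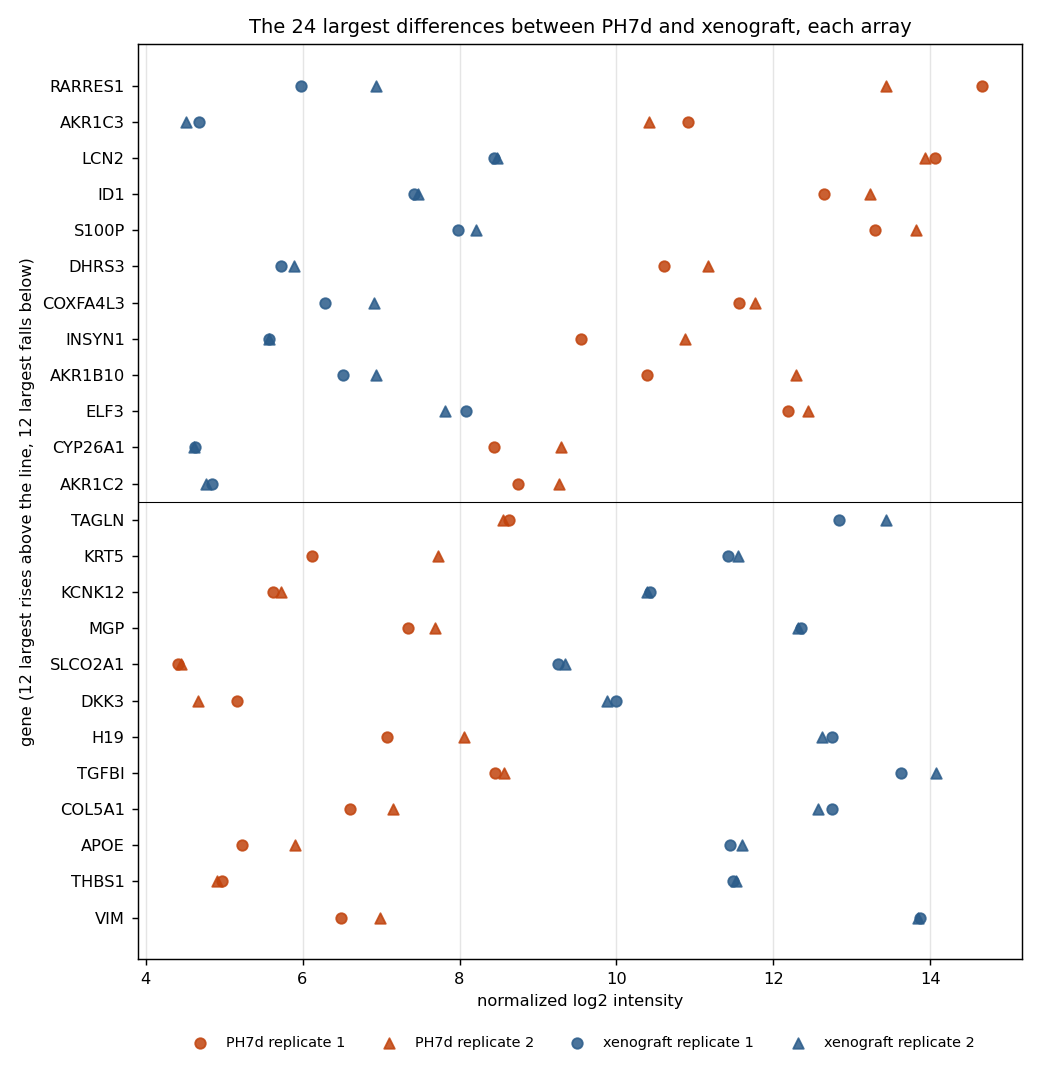
Normalized log2 intensity (horizontal axis) of the 12 genes with the largest rises and the 12 with the largest falls in PH7d, on both PH7d arrays (orange) and both xenograft arrays (blue); circles are replicate 1 and triangles replicate 2. PH7d and xenograft arrays are apart for all 24 genes, as the rule for choosing them required. The replicates differ most for AKR1B10 (10.39 and 12.29) and KRT5 (6.12 and 7.73) in PH7d.

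Of the lists described here, the secretory and mucosal defense genes had the highest median. Of 15 measured, 13 were higher and 0 lower (86.7%, all genes 7.35%), and the median log2 difference was 2.81. RARRES1, LCN2, S100P and LXN are on this list and were singled out by the study on these same samples, so they are not independent evidence of its direction. On both PH7d arrays all 15 exceeded both xenograft arrays, while over all genes 42.7% did on replicate 1 and 49.8% on replicate 2. SLPI, an inhibitor of neutrophil elastase, read 11.07 and 11.98 in PH7d, against 7.43 and 7.44 in the xenografts (4.09 ± 0.41, adjusted p = 0.000513). C3, the central complement component, read 8.75 and 8.82 in PH7d, against 4.95 and 5.60 in the xenografts (3.51 ± 0.34, adjusted p = 0.00043) and was detected on 1 of 2 xenograft arrays. KLK6, a secreted trypsin-like protease, was bright in both groups, at 14.49 and 14.48 in PH7d, against 11.63 and 11.72 in the xenografts (2.81 ± 0.20, adjusted p = 7.89e-05). LXN, latexin, an inhibitor of carboxypeptidases, read 14.51 and 12.66 in PH7d, against 9.72 and 9.87 in the xenografts (3.79 ± 0.64, adjusted p = 0.00764). S100A9, one chain of calprotectin, was called (2.63 ± 0.33), and its partner S100A8 was not (1.51, adjusted p = 0.0622). With either xenograft array left out, 7 of the 15 were called.

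Retinoid genes came next, with 50% of the list called, against 7.35% of all genes. RARRES1, already counted in the secretory list, is among them. RARRES1 and ALDH1A3 were singled out by the study on these same samples, so they are not independent evidence of the list's direction. Retinol enters the cell through STRA6, is oxidized to retinal and then by ALDH1A enzymes to retinoic acid, and CYP26 enzymes break retinoic acid down, while DHRS3 reduces retinal back to retinol. Of 12 measured, 6 were higher and 0 lower (median 1.61), and 5 were called with any one of the 4 arrays left out. ALDH1A3 read 12.95 and 12.74 in PH7d, against 8.96 and 8.85 in the xenografts (3.94 ± 0.23, adjusted p = 2.67e-05). DHRS3 read 10.60 and 11.17 in PH7d, against 5.73 and 5.89 in the xenografts (5.07 ± 0.27, adjusted p = 2.26e-05), and STRA6 read 8.92 and 9.67 in PH7d, against 4.78 and 5.61 in the xenografts (4.10 ± 0.50, adjusted p = 0.00138, detected on 1 xenograft array). CYP26A1, which retinoic acid itself induces, read 8.44 and 9.29 in PH7d, against 4.63 and 4.62 in the xenografts, where it was not well above background. It was at least 10.0-fold higher in PH7d (adjusted p = 0.00043). A second probe of CYP26A1 gave a log2 difference of 1.84. PLAAT4, also known as RARRES3, was higher by 2.37 ± 0.58 (adjusted p = 0.0373). The receptor RARG was not called (0.30).

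The promoter of CYP26A1 is shown because it is the only member whose window holds a single fixed form of the retinoic acid direct repeat. Other forms of the repeat were not searched, so the other members may hold them. The motif searched on both strands was AGTTCA, any 5 bases and AGTTCA again, and the window runs from 250 bases before to 50 after the start, from RefSeq on GRCh38.p14. It lies at chr10:93073643-93073942, plus strand, with the match in capitals 90 bases before the start. The motif stood in 4 of 35116 promoters of this length (0.0114%) and in 1 of the 9 retinoid genes with a promoter in the table.

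CYP26A1: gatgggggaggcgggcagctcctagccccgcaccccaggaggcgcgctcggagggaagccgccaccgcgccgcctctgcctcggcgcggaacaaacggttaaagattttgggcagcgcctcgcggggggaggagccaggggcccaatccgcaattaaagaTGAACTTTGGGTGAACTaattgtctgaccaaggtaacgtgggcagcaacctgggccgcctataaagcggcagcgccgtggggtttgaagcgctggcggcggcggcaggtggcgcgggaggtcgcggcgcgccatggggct

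Interferon-stimulated genes encode the antiviral state, with OAS enzymes that sense double-stranded RNA, IFIT and MX proteins that block viral RNA and capsids, and IFITM proteins in membranes. They were higher in PH7d than in the xenografts for a share of the list. Of 41 measured, 8 were called higher and 0 lower, 19.5% against 7.35% of all genes, and the median log2 difference was 1.29. OAS1 read 11.32 and 11.03 in PH7d, against 8.39 and 7.92 in the xenografts (3.01 ± 0.56, adjusted p = 0.0121). ISG20, an RNA exonuclease, read 12.17 and 12.21 in PH7d, against 9.35 and 9.40 in the xenografts (2.81 ± 0.36, adjusted p = 0.00167). IFI35 was higher by 2.55 ± 0.57 (adjusted p = 0.0268) and USP18, the protease that removes ISG15 and damps the interferon receptor, by 2.12 ± 0.40 (adjusted p = 0.0131). Among genes that did not pass, OAS2 read 13.40 and 12.59 in PH7d and 10.98 and 10.36 in the xenografts (2.33 ± 0.98, adjusted p = 0.186), and IFI27 read 12.80 and 12.76 in PH7d, against 11.30 and 11.04 in the xenografts (1.61 ± 1.00, adjusted p = 0.345). For both genes the PH7d arrays lay above the xenograft arrays, and the error of the model pools the spread within all 6 groups. OAS2 averaged 12.68 on polyHEMA at 4 days (PH4d) and 6.64 in 2D7d.

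The 41 interferon genes did not behave alike on the 2 PH7d arrays. On replicate 1 all 41 stood above both xenograft arrays, as did 42.7% of all genes, and the median difference was 1.98. On replicate 2 the median was 0.75, with 25 genes above both xenograft arrays (61%, all genes 49.8%) and 11 below both (26.8%, all genes 44.1%). The 11 included IFIT3, which read 12.37 and 7.94 in PH7d, against 10.36 and 9.56 in the xenografts, and SAMD9, which read 12.50 and 8.37 in PH7d, against 10.66 and 10.47 in the xenografts. IFIH1, the sensor MDA5, read 11.59 and 8.80 in PH7d, against 10.08 and 9.59 in the xenografts. In these 3 genes the xenograft arrays lay between the PH7d arrays, and 0 of the 3 were called. OAS1, ISG20, IFI35, OAS3 and OASL differed by at most 0.29 between the PH7d arrays. Counts of called interferon genes moved with the arrays used: 6 without PH7d replicate 1, 15 without PH7d replicate 2, and 2 and 1 without xenograft replicates 1 and 2. In fits chosen after seeing the data, 32 were higher and 0 lower without replicate 2 of both PH4d and PH7d, and 16 were higher and 6 lower without replicate 1 of both.

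MHC class I antigen presentation differed on both PH7d arrays. The proteasome subunits PSMB8, PSMB9 and PSMB10 cut proteins into peptides, TAP1 and TAP2 carry these into the endoplasmic reticulum, and the heavy chains pair with beta-2 microglobulin (B2M) to show them at the surface. Of 18 measured, 10 were higher and 0 lower (55.6%, all genes 7.35%, median 1.54), and the medians on PH7d replicates 1 and 2 were 1.42 and 1.84. PSMB9 read 10.35 and 10.61 in PH7d, against 6.95 and 7.27 in the xenografts (3.37 ± 0.46, adjusted p = 0.00233). HLA-B read 14.14 and 13.34 in PH7d, against 10.76 and 10.29 in the xenografts (3.21 ± 0.58, adjusted p = 0.0106), and TAP1 read 13.21 and 13.04 in PH7d, against 10.91 and 10.62 in the xenografts (2.36 ± 0.34, adjusted p = 0.0032). The arrays did not overlap for these 3 genes, as for every called gene. The other called members were HLA-C, HLA-E, HLA-F, PSMB8, PSMB10, TAP2 and B2M. B2M read 14.53 and 14.21 in PH7d, against 13.40 and 13.06 in the xenografts (1.14 ± 0.27, adjusted p = 0.0318). ERAP2, an aminopeptidase that trims peptides, lay the other way, at 13.25 and 12.41 in PH7d and 14.08 and 13.90 in the xenografts, and was not called (-1.16, adjusted p = 0.211). Class I heavy chain probes may bind transcripts of related HLA genes. With either xenograft array left out, 3 of the 18 were called.

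**Figure D3:**
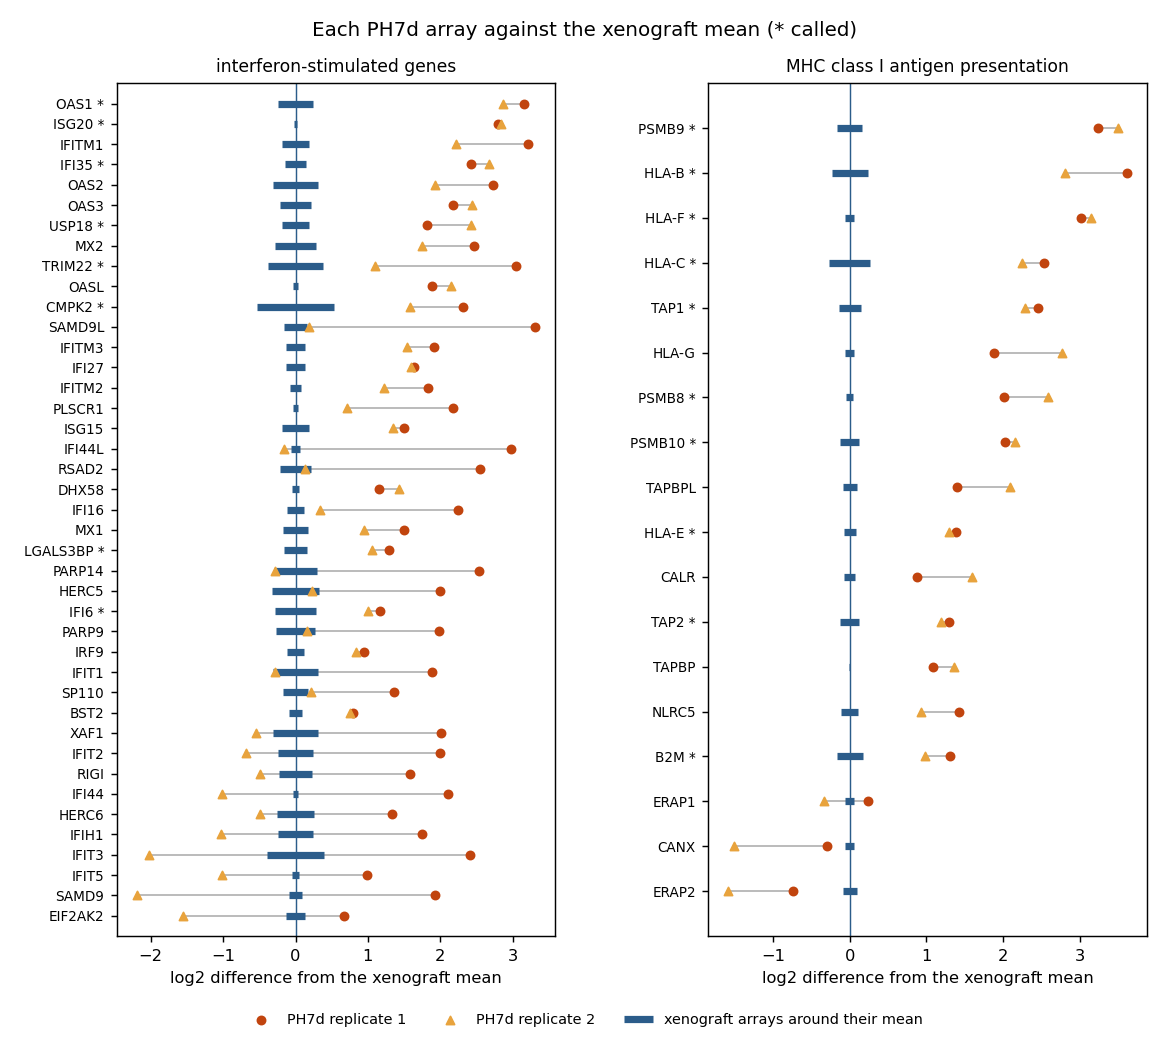
Log2 difference of PH7d replicate 1 (circles) and replicate 2 (triangles) from the xenograft mean, for 41 interferon-stimulated genes (left) and 18 genes of MHC class I antigen presentation (right); the blue bar spans the xenograft arrays and a star marks called genes. Every circle on the left is right of the xenograft arrays, 11 triangles are left of them, and on the right the circles and triangles of most genes sit close together.

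Promoters of TAP1, B2M and ISG20 are shown as called genes that hold the core of the interferon-stimulated response element (GAAA, any 2 bases and GAAA again), searched on both strands in the same 300-base windows, with matches in capitals (overlapping matches run together). In TAP1 the matches begin 134 and 128 bases before the start, in B2M 144 and 138, and in ISG20 69. They lie at chr6:32853655-32853954 (minus strand), chr15:44711267-44711566 (plus) and chr15:88638766-88639065 (plus) of GRCh38.p14, from RefSeq. Of 35116 promoters, 3.57% hold the motif, as do 23 of the 33 interferon-stimulated genes and 9 of the 16 MHC class I genes found in the table. The median log2 difference was 1.12 with the motif and 1.09 without it in the interferon list, and 1.24 with it and 2.33 without it in the MHC class I list.

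TAP1: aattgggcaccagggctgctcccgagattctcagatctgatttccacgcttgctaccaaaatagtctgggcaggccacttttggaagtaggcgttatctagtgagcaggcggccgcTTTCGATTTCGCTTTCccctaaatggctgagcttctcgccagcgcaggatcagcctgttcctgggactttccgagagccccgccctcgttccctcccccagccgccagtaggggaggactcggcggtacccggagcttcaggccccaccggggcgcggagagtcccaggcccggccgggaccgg

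B2M: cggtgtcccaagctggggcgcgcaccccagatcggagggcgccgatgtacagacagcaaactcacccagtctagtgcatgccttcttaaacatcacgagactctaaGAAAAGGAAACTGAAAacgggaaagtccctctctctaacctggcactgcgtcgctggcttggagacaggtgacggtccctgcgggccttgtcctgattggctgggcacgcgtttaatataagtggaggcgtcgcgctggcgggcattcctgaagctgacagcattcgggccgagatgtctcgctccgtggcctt

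ISG20: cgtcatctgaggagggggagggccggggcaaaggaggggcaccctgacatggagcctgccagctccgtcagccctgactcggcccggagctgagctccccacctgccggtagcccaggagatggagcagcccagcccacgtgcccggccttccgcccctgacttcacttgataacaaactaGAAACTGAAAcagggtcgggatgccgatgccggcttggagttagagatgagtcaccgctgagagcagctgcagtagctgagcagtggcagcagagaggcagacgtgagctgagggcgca

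NF-kB targets and cytokines had 4 members higher and 1 lower of 22 (22.7%, all genes 7.35%, median 1.03). TNFAIP2 read 8.29 and 9.09 in PH7d, against 5.33 and 5.73 in the xenografts (3.16 ± 0.53, adjusted p = 0.00757). CXCL10, a chemokine that draws T cells and that interferon induces, read 9.61 and 6.76 in PH7d, against 5.15 and 5.05 in the xenografts, where it was not well above background (at least 6.23-fold, adjusted p = 0.0305). It was bright on replicate 1 and weaker on replicate 2. CXCL1, a neutrophil chemokine, was at least 3.38-fold higher (adjusted p = 0.0268), BCL3, an NF-kB cofactor, was the fourth member called higher, and IL32, a cytokine, was the one called lower. IL32 was detected on both xenograft arrays and on none of the 10 culture arrays, so the filter on dim probes in part fixed its direction. Its call ended without background correction and with the authors' processed values. Without xenograft replicate 1 or 2, 0 of the 22 were called higher.

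The 12 largest falls in PH7d were VIM, THBS1, APOE, COL5A1, TGFBI, H19, DKK3, SLCO2A1, MGP, KCNK12, KRT5 and TAGLN. VIM, the intermediate filament vimentin of mesenchymal cells, read 6.49 and 6.99 in PH7d, against 13.87 and 13.84 in the xenografts. It was bright in the tumors and dim in PH7d, without overlap, a difference of -7.11 ± 0.33 (adjusted p = 1.05e-05), or 138-fold. THBS1, thrombospondin-1, a matrix protein that activates TGF-beta and curbs vessel growth, read 4.98 and 4.91 in PH7d, not well above background, against 11.48 and 11.52 in the xenografts. It was at least 54.1-fold lower in PH7d (adjusted p = 2.78e-06). COL5A1, a chain of fibrillar collagen V, read 6.60 and 7.15 in PH7d, against 12.75 and 12.57 in the xenografts (-5.78 ± 0.44, adjusted p = 0.000103). TGFBI, a TGF-beta-induced matrix protein, read 8.45 and 8.57 in PH7d, against 13.62 and 14.07 in the xenografts (-5.33 ± 0.25, adjusted p = 1.05e-05). TAGLN, transgelin, an actin-binding protein of contractile cells, read 8.63 and 8.56 in PH7d, against 12.83 and 13.44 in the xenografts (-4.54 ± 0.31, adjusted p = 7.27e-05).

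Outside the matrix, APOE, the lipid carrier apolipoprotein E, read 5.23 and 5.90 in PH7d, not well above background, against 11.45 and 11.60 in the xenografts, at least 55.2-fold lower (adjusted p = 0.000462). H19, an imprinted noncoding RNA, read 7.07 and 8.06 in PH7d, against 12.74 and 12.62 in the xenografts (-5.12 ± 0.56, adjusted p = 0.00075). KRT5, a basal keratin, read 6.12 and 7.73 in PH7d, against 11.42 and 11.55 in the xenografts (-4.56 ± 0.56, adjusted p = 0.0014). MGP, an inhibitor of calcification, was lower by 4.81 on the log2 scale (SE 0.28), and SLCO2A1, a prostaglandin transporter, was at least 11.8-fold lower. DKK3, a secreted relative of the Wnt antagonists, was at least 18.4-fold lower (adjusted p = 4.24e-05), while its 3 probes gave log2 differences between -5.03 and -1.03. All 12 calls among the largest falls held with any one of the 4 arrays left out.

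Among 15 mesenchymal genes measured, 7 were lower and 1 higher (median -0.99), and 7 were called lower whichever of the 4 arrays was left out. The share of the list called was 53.3%, against 7.35% of all genes. Besides vimentin, CDH2, N-cadherin, read 7.96 and 8.23 in PH7d, against 11 and 11.35 in the xenografts (-3.08 ± 0.31, adjusted p = 0.00048). SNAI2 read 7.02 and 7.09 in PH7d, against 11.31 and 11.30 in the xenografts (-4.25 ± 0.34, adjusted p = 0.000128), and AXL, a receptor tyrosine kinase, read 6.12 and 6.84 in PH7d, against 10.87 and 10.90 in the xenografts (-4.41 ± 0.51, adjusted p = 0.00108). SPARC, a collagen-binding glycoprotein, was lower by 3.28 on the log2 scale, and LOX, which cross-links collagen, was at least 4.71-fold lower. ITGA5, the fibronectin receptor chain, went the other way (1.56 ± 0.33, adjusted p = 0.0218). E-cadherin did not pass the test: CDH1 read 12.86 and 12.45 in PH7d and 13.16 and 12.90 in the xenografts (-0.37 ± 0.29, adjusted p = 0.436), with both PH7d arrays below both xenograft arrays.

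TGF-beta responsive genes had 8 of 17 lower and 1 higher (52.9%, all genes 7.35%, median -0.83). LTBP2, which binds latent TGF-beta, read 6.57 and 7.60 in PH7d, against 11.19 and 11.11 in the xenografts (-4.07 ± 0.36, adjusted p = 0.00025). PMEPA1, a feedback inhibitor of SMAD signaling, read 8.73 and 9.04 in PH7d, against 12.67 and 12.87 in the xenografts (-3.89 ± 0.31, adjusted p = 0.000129). The matrix signaling proteins CCN1 and CCN2 were lower by 2.83 and 1.66 on the log2 scale. The ligand TGFB2 was at least 2.6-fold lower. The exception was IGFBP3, a binding protein of insulin-like growth factors, at 9.86 and 9.77 in PH7d, against 6.96 and 7.33 in the xenografts (2.67 ± 0.35, adjusted p = 0.00193). Of the collagens and matrix genes 3 of 17 were lower and 0 higher (median -0.91), among them COL7A1, the anchoring fibril collagen, and TNC, tenascin-C. The shares called were 17.6% of this list and 28.6% of the contractile genes, against 7.35% of all genes. Of 14 contractile genes 4 were lower, TAGLN, TPM1, ACTN1 and ACTA2 (median -1.02), and with either xenograft array left out only 1 was.

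Integrin and laminin genes, which tie cells to basement membrane, had 6 of 14 lower and 0 higher (42.9%, all genes 7.35%, median -1.20). ITGB6 read 6.21 and 4.57 in PH7d, against 8.59 and 8.49 in the xenografts (-3.15 ± 0.67, adjusted p = 0.0219), with 1 of 2 PH7d arrays above background. LAMB3, a chain of laminin-332, read 7.95 and 9.09 in PH7d, against 10.18 and 10.43 in the xenografts (-1.79 ± 0.45, adjusted p = 0.0435). The 6 calls ended with either xenograft array left out, and 2 were left with median scaling. Metallothioneins, which bind zinc and copper, were lower for 3 of 5 measured (60%, all genes 7.35%, median -2.12). MT2A read 10.27 and 10.63 in PH7d, against 12.70 and 13.01 in the xenografts (-2.40 ± 0.29, adjusted p = 0.00135), and all 5 members lay below both xenograft arrays on both PH7d arrays, as did 26.3% of all genes. With either xenograft array left out, 1 of the 5 was called. Probes of this family may bind each other's transcripts.

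Among Wnt genes 5 of 21 were lower and 0 higher (23.8%, all genes 7.35%, median -0.58). They were the antagonists SFRP1 and DKK1, the related DKK3, the ligand WNT7A and AXIN2, a feedback target of the pathway. With either xenograft array left out 2 were called, and the calls of WNT7A and AXIN2 ended. SFRP1 read 10.31 and 10.41 in PH7d, against 12.74 and 12.63 in the xenografts (-2.32 ± 0.26, adjusted p = 0.000893). The BMP list split, with 3 higher and 1 lower of 13 (30.8%, all genes 7.35%). ID2 read 7.02 and 8.03 in PH7d, against 4.73 and 5.27 in the xenografts (at least 3.94-fold higher, adjusted p = 0.0049). NOG, noggin, which traps BMP ligands, read 4.93 and 6.01 in PH7d, against 7.71 and 7.71 in the xenografts (-2.24 ± 0.42, adjusted p = 0.0135). HES1, a Notch target, was the other member called higher.

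Epithelial junction and keratin genes had 6 of 29 higher and 1 lower (24.1%, all genes 7.35%) and a median of 0.16. The claudin CLDN7 read 12.02 and 12.73 in PH7d, against 10.05 and 9.95 in the xenografts (2.38 ± 0.33, adjusted p = 0.0028), and CLDN3, another claudin, was higher by 1.81. RAB25, ST14 (matriptase), OVOL1 and ELF3 were the other members called higher, and KRT5 was the member called lower. The simple epithelial keratins were close: KRT19 read 13.73 and 14.06 in PH7d and 14.26 and 14.16 in the xenografts, and KRT8 read 12.56 and 13.55 in PH7d and 13.14 and 13.31 in the xenografts (adjusted p = 0.406 and 0.764). Without xenograft replicate 1 or 2, 2 of the 29 were called higher.

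**Figure D4:**
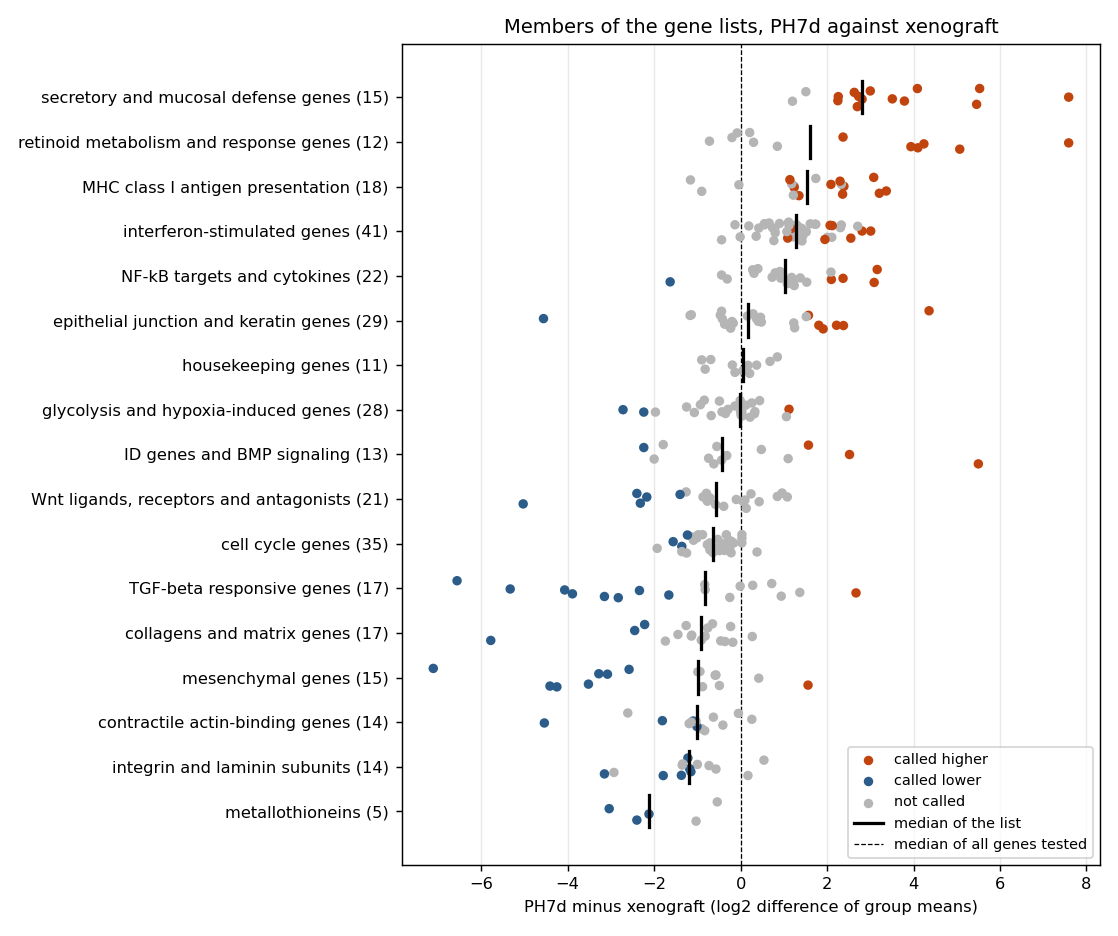
Log2 difference between the PH7d and xenograft means (horizontal axis) for the members of 17 gene lists, with the number measured in brackets; points are genes, black bars list medians and the dashed line the median of all genes (0.01). Secretory, retinoid and MHC class I lists lie to the right (medians 2.81, 1.61 and 1.54), and integrin and metallothionein lists furthest to the left (-1.20 and -2.12). Every member of the secretory list is higher in PH7d and every metallothionein lower, and the other lists hold members in both directions.

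Cell cycle genes differed between the PH7d replicates. Of 35 measured, 3 were lower (CCNA2, KIF20A and RRM1) and 0 higher, 8.57% against 7.35% of all genes, with a median of -0.64. On PH7d replicate 1 the median was -1.17 and 32 of 35 lay below both xenograft arrays (91.4%, all genes 42%). On replicate 2 the median was -0.13, with 18 below (51.4%, all genes 44.1%) and 14 above (40%, all genes 49.8%). FOXM1, which drives mitotic genes, read 7.03 and 9.73 in PH7d and 9 and 9.04 in the xenografts. CCNA2, cyclin A2, read 8.37 and 9.06 in PH7d, against 10.10 and 10.04 in the xenografts (-1.36 ± 0.31, adjusted p = 0.0293). The count was 9 without PH7d replicate 2, 2 without PH7d replicate 1 and 0 with either xenograft array left out or with median scaling in place of quantile normalization. Of 28 glycolysis and hypoxia genes 1 was higher and 2 lower (10.7%, all genes 7.35%, median -0.01), and the PH7d arrays differed here too. On replicate 1, 22 of 28 (78.6%) lay below both xenograft arrays, against 42% of all genes. On replicate 2, 15 lay above (53.6%, all genes 49.8%), and 39.3% of the list lay below on replicate 1 and above on replicate 2, against 13.3% of all genes. NDRG1 read 8.89 and 10.68 in PH7d, against 12.44 and 12.56 in the xenografts (-2.72 ± 0.50, adjusted p = 0.0121), EGLN3, an oxygen-sensing prolyl hydroxylase, was at least 3.49-fold lower, and VEGFA was higher by 1.12 ± 0.27 (adjusted p = 0.0336). The glycolytic enzyme LDHA read 14.77 and 14.80 in PH7d and 14.75 and 14.84 in the xenografts.

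In the HER2 family, the receptors themselves were not called: ERBB2 differed by 0.21 (adjusted p = 0.557), ERBB3 by 0.78 (adjusted p = 0.142) and EGFR by -0.96 (adjusted p = 0.0746). The ligands BTC (betacellulin) and EGF and the adaptor GRB7, co-amplified with HER2, were higher, and LRIG1, which lowers receptor levels, was lower. That made 4 of 15 in all (26.7%, all genes 7.35%). BTC read 8.40 and 6.70 in PH7d, against 5.60 and 5.04 in the xenografts (2.23 ± 0.48, adjusted p = 0.0242). LRIG1 read 6.05 and 7.08 in PH7d, against 8.15 and 8.45 in the xenografts (-1.74 ± 0.34, adjusted p = 0.0149). Of 23 apoptosis regulators 3 were called (13%, all genes 7.35%), all higher: HRK, PMAIP1 (NOXA) and BID. The other 20 did not pass. HRK read 9.42 and 9.38 in PH7d, against 6.72 and 6.57 in the xenografts (2.75 ± 0.34, adjusted p = 0.00154). Of these calls, HRK held with any one array left out, and the rest ended with either xenograft array left out.

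The share of members called differed between the remaining lists, against 7.35% of all genes. It was 40% in the IGF axis and H19 list and 27.3% in the lipid handling list. The CDK inhibitor, cholesterol, heat shock and ATF4 lists lay nearer to that of all genes, between 5.88% and 11.1%. BTG1, which slows proliferation, was the 1 member called of 15 CDK inhibitors, G1 cyclins and MYC (2.05 ± 0.42). SQLE, a cholesterol enzyme, was the 1 of 17 called in its list (-1.30 ± 0.34). The small heat shock protein HSPB8 read 11.36 and 11.75 in PH7d, against 9.18 and 9.28 in the xenografts (2.32 ± 0.30, adjusted p = 0.00176), 1 of 18 heat shock genes higher, and DNAJB4 was at least 1.97-fold lower. PSAT1 and SDF2L1 were higher, 2 of 20 ATF4 and unfolded protein response genes. In the IGF axis IGFBP5 and IGFBP7 were lower beside H19, opposite to IGFBP3, which gave 3 lower and 1 higher of 10. APOL1 and NPC2 were higher and APOE lower, 3 of 11 lipid handling genes. With only the 4 arrays compared, 0 members of the CDK inhibitor, cholesterol and ATF4 lists were called. The IGF list then had 1 higher and 1 lower, the lipid handling list 0 and 1, and the heat shock list 1 and 0. Of 16 genes that the study singled out on these samples, 6 were higher and 5 lower, and IFIT1 (0.80), MX1 (1.22), OAS2 and IFI27 were among those that did not pass.

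The other cultures are given for context. For all 12 largest falls the xenograft mean was the highest of the 6 groups, and for 9 of the 12 largest rises it was the lowest. VIM averaged 6.74 in PH7d, 6.64 in 2D7d, 7.28 and 8.47 in Matrigel at 4 and 7 days (MG4d and MG7d) and 6.68 in PH4d. ALDH1A3 averaged 12.85 in PH7d and between 13.04 and 13.89 in the other cultures. For both genes the 5 cultures stood on one side of the tumors. AXL, in contrast, averaged 6.48 in PH7d and 7.30 in PH4d, against 12 in 2D7d and 10.89 in the xenografts, so the polyHEMA cultures stood apart. LCN2 averaged 13.99 in PH7d, 11.46 in PH4d and 8.04 to 9.75 in Matrigel and 2D7d. AKR1B10 averaged 11.34 in PH7d and 11.52 in PH4d, against 4.87 to 5.95 in the other cultures and 6.72 in the xenografts. Of the 438 genes higher in PH7d, PH7d had the highest of the 6 means for 62.6% (11.9% of all genes), and of the 368 lower, the xenograft had the highest for 76.1% (19.6% of all genes). These shares follow in part from how the genes were chosen and are given as a description.

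**Figure D5:**
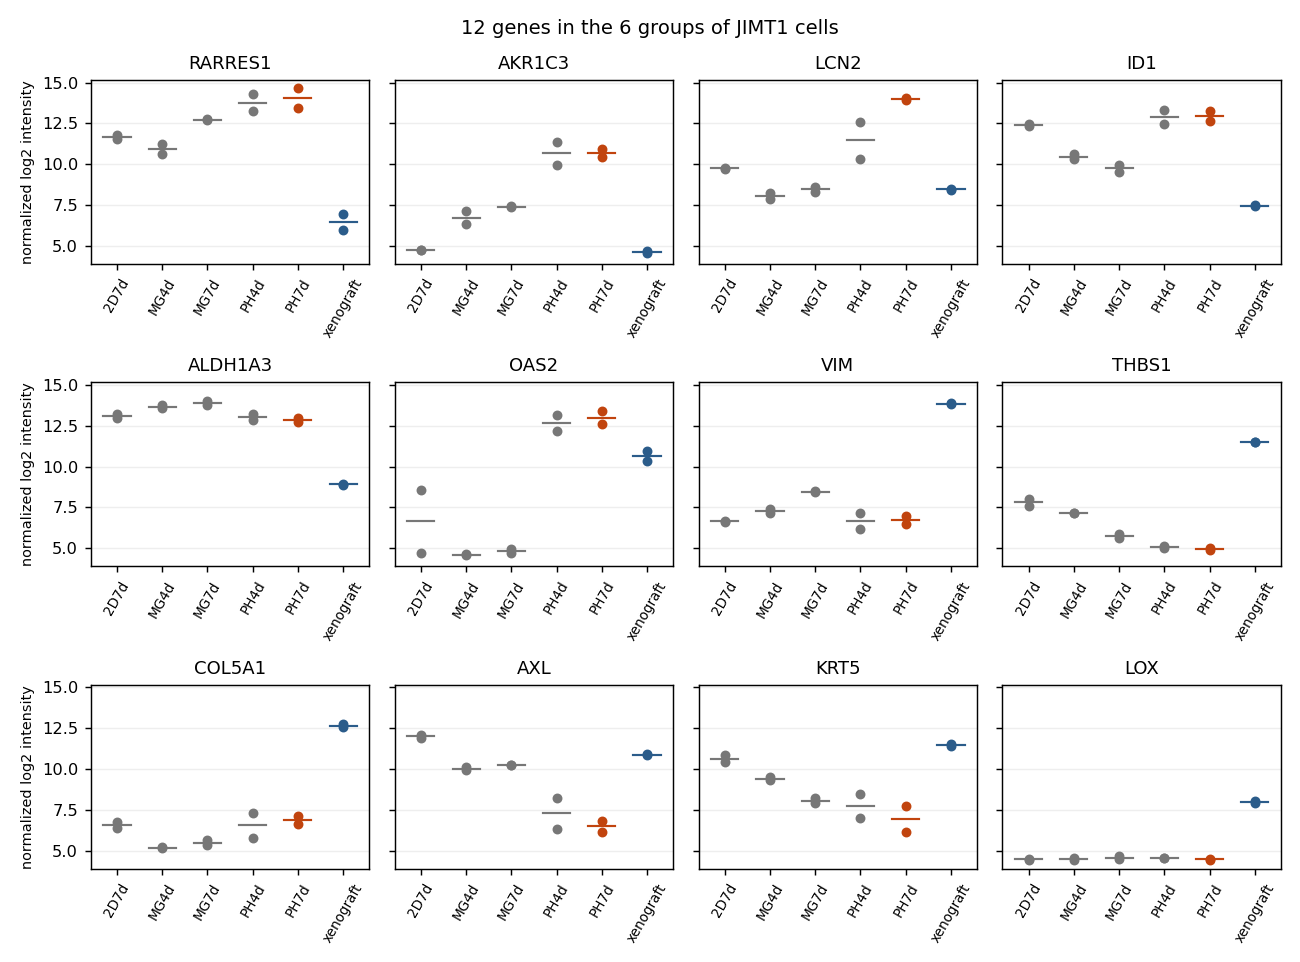
Normalized log2 intensity (vertical axis) of 12 genes in the 6 groups, with points for arrays and lines for group means; PH7d is orange, xenograft blue and the other cultures gray. VIM, COL5A1 and LOX are high in the xenograft alone, ALDH1A3 is low there alone, and OAS2, LCN2, AKR1C3 and AXL set the polyHEMA cultures apart from the other cultures.

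Some genes were detected in tumors only. Of the 368 genes lower in PH7d, 58 (15.8%) were detected on both xenograft arrays and on none of the 10 culture arrays, against 0.994% of all genes. Such genes passed the filter on dim probes only through the xenograft arrays, which in part fixes their direction, so the shares are a description. They include SLCO2A1, LOX and DCN, and, chosen after their values were seen, SPARCL1 (5.04 and 5 in PH7d, against 8.07 and 8.18 in the xenografts), TCF4 (4.69 and 4.55 in PH7d, against 8.33 and 8.31 in the xenografts), VCAM1 (4.43 and 4.54 in PH7d, against 6.67 and 7.08 in the xenografts) and PTPRB (5.11 and 4.86 in PH7d, against 7.02 and 7.02 in the xenografts). DCN, decorin, a fibroblast proteoglycan, read 4.49 and 4.62 in PH7d, against 7.66 and 7.97 in the xenografts (at least 4.21-fold, adjusted p = 4.24e-05). Of the other fibroblast markers, COL1A2, PDGFRA, PDGFRB, POSTN and THY1 were undetected on all 4 arrays, and COL3A1 was detected on 1 xenograft array. COL1A1 was detected on all 4 arrays and overlapped, at 6.32 and 7.08 in PH7d, against 6.87 and 7.26 in the xenografts. LUM, detected on 1 PH7d array and both xenograft arrays, read 6.51 and 5.13 in PH7d, against 6.62 and 7.22 in the xenografts. The summed linear signal of the 10 markers was 230 and 217 in PH7d, against 515 and 678 in the xenografts. The summed signal of the endothelial markers was 633 and 1086 in PH7d, against 366 and 423 in the xenografts, and that of the macrophage markers was 841 and 1160 in PH7d, against 1207 and 1256 in the xenografts. Of the endothelial markers VWF, KDR, CLDN5, EMCN and TIE1 were undetected on all 4 arrays, and of the macrophage markers CD163, LYZ, C1QA, C1QB, C1QC and PTPRC. AIF1 (at least 4.5-fold), FAP (at least 1.45-fold), TEK (not called, adjusted p = 0.108) and HBA2, an alpha-globin gene (at least 5.45-fold), were detected in the xenografts and not in PH7d, while HBA1 and HBB were undetected throughout. PECAM1, CD14 and MB, listed as endothelial, macrophage and muscle markers, were higher in PH7d (by 1.89, 2.38 and 1.81), with PECAM1 at 8.19 and 7.54 in PH7d, against 6.01 and 5.95 in the xenografts. The part of host RNA in the matrix, mesenchymal and contractile differences was not tested.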

How the data were processed

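RNA from 12 samples was measured on Illumina HumanHT-12 v4 BeadChips, with 2 biological replicates in each of 6 groups; PH7d and xenograft are the groups compared. The authors deposited non-normalized bead intensities and, for each probe and array, a detection p-value against the negative controls; the scanner software is not given in the sources used here. A second deposited table holds log2-scale values that the authors made by variance stabilization in lumi. For 38524 of 47323 probes it stood under another probe ID, so it was matched by rank and used as an alternative only. Its scale at low signal stays unknown.

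Intensities were background-corrected from the detection p-values (normexp, offset 16), quantile-normalized over 12 arrays and put on the log2 scale (neqc in limma 3.58.1, R 4.3.3; Python 3.11.15). A probe entered the model if its detection p was below 0.01 for the full pair of replicates in 1 or more groups (18308 of 47323). Of all probes, 30113 had 1 gene symbol in the platform annotation, 8 several and 17202 were unnamed here. The brightest probe stood for a gene. A linear model of 6 group means with empirical Bayes errors (limma) gave p-values with Benjamini-Hochberg adjustment over 10970 genes. With 2 arrays a group, the number of arrays limits the precision. The model was tested on simulated data, drawn for each gene with the same spread in all groups. That test does not cover the unequal spread between the PH7d and the xenograft replicates.

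The genes named are the 12 largest rises and 12 largest falls, up to 4 changed members of each gene list, and genes the study names. Further members are named for counts or for their role, chosen after their values were seen. Members and lists were chosen with earlier results of these data known, and the list named by the study was chosen on these samples. Alternatives changed the scaling, background, offset, filter, probe choice, arrays used, weights and a replicate block. No column of unknown samples was used. Promoter sequences are RefSeq's.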

Additional observations from a re-analysis of the deposited data

Results flagged for a closer look

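For the 24 genes with the largest differences, the difference between PH7d and Matrigel at 7 days (MG7d) was tested in the same limma model. The xenograft arrays do not enter this difference, but the PH7d arrays by which the genes were chosen do. That choice in part fixes its direction, so the results are a description. The difference between PH7d and MG7d passed at an adjusted p under 0.05 for 13 genes. Given as PH7d minus MG7d on the log2 scale, 10 of these lay higher in PH7d: AKR1B10 by 6.47 ± 0.57 (SE, n = 2 arrays each; adjusted p = 0.000493, limma), LCN2 by 5.52 ± 0.57 (0.000924), COXFA4L3 by 5.32 ± 0.41 (0.000365), AKR1C2 by 3.52 ± 0.35 (0.000868), S100P by 3.35 ± 0.27 (0.000365), AKR1C3 by 3.26 ± 0.44 (0.00283), ID1 by 3.21 ± 0.33 (0.000924), INSYN1 by 2.94 ± 0.47 (0.00576), ELF3 by 2.06 ± 0.32 (0.00548) and CYP26A1 by 1.61 ± 0.42 (0.0405). The other 3 lay lower in PH7d, with VIM at -1.73 ± 0.33 (0.012), TGFBI at -1.86 ± 0.25 (0.00272) and DKK3 at -2.93 ± 0.32 (0.00121). The values in brackets after the first are adjusted p-values.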

How the results depend on the processing

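Of the 104 named genes 96 were called, so only these 96 could lose a call. Every named gene that was called kept its direction in each alternative run. The counts of genes changed, higher and lower in PH7d (806, 438 and 368) were 424, 245 and 179 with the authors' processed values, 168, 88 and 80 with only the 4 arrays compared, 474, 253 and 221 with array weights, and 2245, 949 and 1296 at 2-fold alone. Leaving out 1 of the 4 arrays in turn gave 217 to 1681 changed, 95 to 811 higher and 122 to 870 lower, lowest without xenograft replicate 2 and highest without PH7d replicate 1 (248 changed without xenograft replicate 1, 596 without PH7d replicate 2). Of 104 named genes, 50 and 51 lost the call without xenograft replicates 1 and 2, 11 without PH7d replicate 1 and 23 without PH7d replicate 2. Alternatives chosen after seeing the data gave 1438, 698 and 740 without replicate 2 of both PH4d and PH7d, 4367, 1887 and 2480 without replicate 1 of both, and 1506, 793 and 713 without both PH4d arrays. Genes higher in PH7d made up 54.3% of the calls, and 43.2% without replicate 1 of both PH4d and PH7d. IFIT1, not called (0.80), was at -0.29 without PH7d replicate 1 and at -0.29 without replicate 1 of both, and at 1.89 without PH7d replicate 2. The cause was not tested. The labels tie the replicates by number only. Across genes, which are not independent replicates, the difference of replicate 1 from replicate 2 in PH7d correlated at 0.11 with that in the xenografts. Over all pairs of groups this correlation ran from -0.12 to 0.87, highest for PH4d with PH7d. A replicate block gave 1112 calls and ended 0 calls of named genes.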
